A study of Homo sapiens with 6 samples.

Results

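The 10 genes described here encode the repressing and output arms of the circadian clock: the period genes PER1, PER2 and PER3, the cryptochromes CRY1 and CRY2, the REV-ERB receptors NR1D1 and NR1D2, the basic helix-loop-helix repressor BHLHE40, and the output factors DBP and TEF. They were taken by gene name, each from a single row, out of 19514 names in the deposited table. The cells were ARPE-19, a long-established line from human retinal pigment epithelium, labelled wild type. The treated cells received tt-DDE, a reactive dienal found in heated cooking oil, at 40 µM in the medium for 24 h. The others received DMSO, the vehicle, in equal volume and for the same time. Each group held 3 libraries of polyadenylated RNA.

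In the mammalian clock, the activators CLOCK (or NPAS2) and BMAL1 (gene ARNTL) bind E-box sequences and switch on the PER and CRY genes, whose proteins return to the nucleus and block the activators. A linked loop runs through the REV-ERB receptors, which repress ARNTL, and the ROR receptors, which activate it through the same sequence. DBP, TEF and HLF activate genes through D-box sequences, which NFIL3 represses. Most cell types, cultured epithelial cells included, carry this circuit, and a change of medium or serum can reset it.

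Total counts were 15548067 to 17130543 in the tt-DDE libraries and 14156421 to 16061373 in the DMSO libraries. Every one of the 10 genes passed the filter on low counts, with 45 to 3256 reads per tt-DDE library and 36 to 1807 reads per DMSO library. Of the 18 pigment epithelium markers looked at, RPE65 and TRPM1 had 0 counts in the 6 libraries, whereas the transcription factor OTX2 was at 62.9 ± 1.66 CPM after tt-DDE and 64.0 ± 2.06 CPM in DMSO (SD, n = 3 each; CPM is the read count per library size, with TMM factors). Among markers of other cells, CD3E of T lymphocytes and CRX of photoreceptors had 0 counts in the 6 libraries. CD14 of monocytes had 84 reads after tt-DDE and 2 in DMSO, and the neuronal RBFOX3 had 36 and 0. Other markers of the same lists went the other way. CD68, a leukocyte marker, had 5012 reads after tt-DDE and 6133 in DMSO (log2 fold change -0.29). The neuronal SYP had 9 and 16 reads. Of the leukocyte markers 2 were tested, of which 1 rose and 1 fell. The summed pigment epithelium markers were at 848 to 876 CPM after tt-DDE and 1982 to 2031 CPM in DMSO, a sum made up mainly of EZR, KRT8 and KRT18 in both groups. Of the 12 pigment epithelium markers tested, 4 rose (BEST1, MERTK, TYRP1 and LRAT, with log2 fold changes of 5.39, 2.40, 1.08 and 0.60). Another 5 fell (KRT8, KRT18, EZR, PMEL and MITF, at -1.81, -1.33, -1.15, -0.87 and -0.13), and 3 were not past the threshold. The groups of LRAT and of MITF overlapped. The part of these markers in the results was not tested. Only 1 time was sampled, so a shift of clock phase and a change in mean level cannot be told apart, and neither can RNA per cell and the share of cells that express a gene.

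Promoter sequence from RefSeq (GRCh38.p14) was available for all 10 genes, in 14 windows of 300 bases, each running from 250 bases before to 50 after an annotated start. The E-box CACGTG, the target of the activators, stood in 5 windows of 4 genes, and 7.26% of all 35116 promoter windows hold it. These 4 genes are shown because they carry those letters, and each was higher after tt-DDE. The windows of CRY1, CRY2 and NR1D1, which were also higher, held no E-box, nor did those of PER2, PER3 and DBP. The lines are written 5′ to 3′ on the gene's strand, with the matched letters in capitals. The PER1 stretch is chr17:8152547-8152602 on the minus strand, NR1D2 is chr3:23945902-23946046 on the plus strand, BHLHE40 is chr3:4979187-4979216 on the plus strand, and TEF is chr22:41367235-41367290 and chr22:41381724-41381779 on the plus strand.
PER1: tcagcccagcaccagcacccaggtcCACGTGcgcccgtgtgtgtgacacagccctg
NR1D2: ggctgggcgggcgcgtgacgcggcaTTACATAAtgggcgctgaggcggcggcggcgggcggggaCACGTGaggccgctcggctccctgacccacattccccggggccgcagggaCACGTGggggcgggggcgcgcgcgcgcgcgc
BHLHE40: tccaaCACGTGagactcatgtgatgaagcc
TEF, start 1: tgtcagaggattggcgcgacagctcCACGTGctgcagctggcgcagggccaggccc
TEF, start 2: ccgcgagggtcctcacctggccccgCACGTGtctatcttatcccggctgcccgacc

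The NR1D2 stretch is from the window of start 2 of that gene, and the window of start 1 held no E-box or D-box letters. The stretch holds 2 E-boxes, 155 and 105 bases before start 2, and a D-box on the opposite strand (TTACATAA, the reverse complement of TTATGTAA). The D-box letters TTATGTAA occur in 0.886% of all windows and TTACGTAA in 0.125%. They also occur in PER3 (chr1:7784089-7784146, plus strand) and at the start site of PER2 (chr2:238288596-238288623, minus strand), of which PER3 fell and PER2 was not past the threshold.
PER3: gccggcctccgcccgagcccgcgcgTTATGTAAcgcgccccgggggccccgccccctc
PER2: ccgctgcggcTTACGTAAccgccgccgg
In GENCODE v29 the PER1, NR1D2 and second TEF stretches lie within their own genes but outside exons. The PER1 stretch also lies within AC129492.3, and the NR1D2 stretch within NKIRAS1 on the opposite strand. The first TEF and the PER3 stretches lie in no gene, the BHLHE40 stretch is inside an exon of that gene, and 14 of the 28 PER2 bases are exonic. The core letters of the ROR element, AGGTCA, on either strand, was found in CRY2 and PER1 windows, against 13.8% of all windows. Searched on both strands, no match was found in the 14 windows for both forms of the full ROR element (0.168% and 0.211% of all windows), the cAMP element TGACGTCA (1.85%), the AP-1 letters TGACTCA (4.95%), the heat shock element (0.49%), the CHOP and ATF4 composite TGATGNAAT (0.991%) or the ER stress element (0.0769%). A match or its lack describes the letters of these windows and says nothing of binding.

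Of the 10 genes, 7 rose after tt-DDE, PER3 fell, and PER2 and DBP did not pass the threshold (edgeR's quasi-likelihood test, Benjamini-Hochberg adjusted p of 0.05 over 12531 genes). The exposure moved most of the transcriptome, so this is read against all genes tested, of which 83.3% passed, 41.7% as higher and 41.6% as lower. The count of 8 genes called is therefore near the background. The rise was at least 2-fold in 3 genes (PER1, NR1D1 and CRY2), where 16.1% of all genes rose as far, and PER3 was the 1 gene to fall that far, as did 16.8% of all genes. Together 4 of the 10 moved at least 2-fold, beside 32.9% of all genes. The median log2 fold change of the 10 was 0.67, beside 0.001335 over all genes. In 9 of them the 3 tt-DDE libraries lay wholly above or below the 3 DMSO libraries in scaled counts, as in 83.9% of genes. Ranked among all genes by log2 fold change, the 10 lay between PER1 at the 93.2 percentile and PER3 at the 12.6 percentile.

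**Figure D1:**
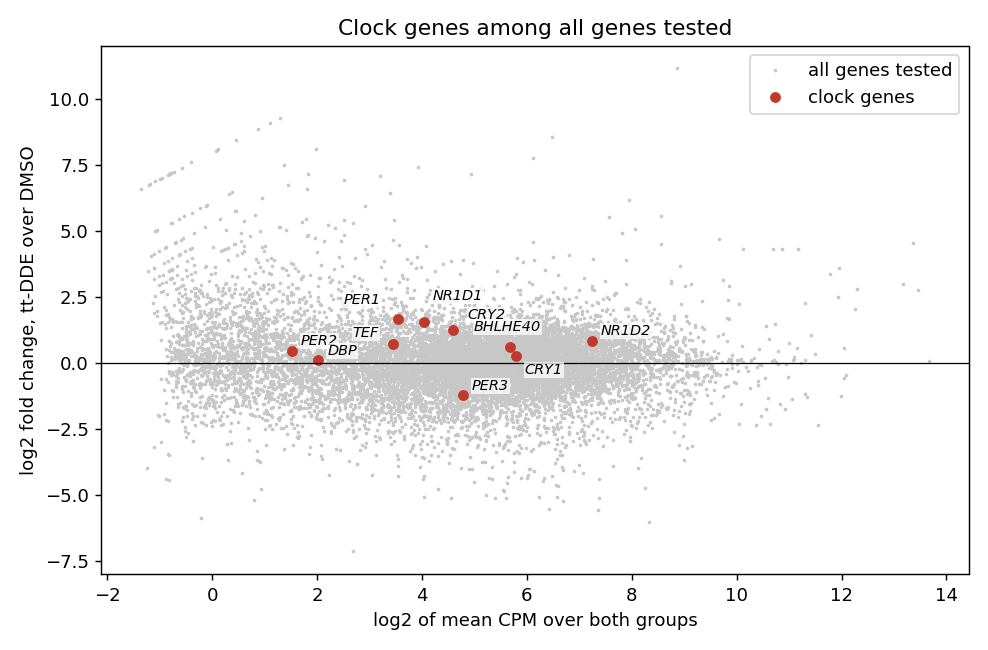
Log2 fold change (tt-DDE over DMSO, vertical axis) against the log2 of the mean CPM over both groups (horizontal axis) for the 12531 genes tested (grey) and the 10 clock genes (red, named). PER3 is the clock gene below -1, and PER1, NR1D1 and CRY2 lie above 1.

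PER1, the period gene known for its rapid response to outside signals, was at 2.83, 3.51 and 3.02 FPKM after tt-DDE and at 1.18, 0.899 and 1.07 FPKM in DMSO (FPKM is the authors' read count per gene length and library total). The lowest treated library stood well above the highest DMSO library. The log2 fold change on counts was 1.67 (SE 0.126, adjusted p = 2.41e-16 by edgeR's quasi-likelihood test), a 3.18-fold rise. PER3, the period gene linked to sleep timing in people and dispensable for core rhythms in mice, went the other way, with 1.83, 1.87 and 1.96 FPKM after tt-DDE against 4.88, 4.41 and 4.83 FPKM in DMSO. Its groups did not overlap either, and its log2 fold change was -1.23 (SE 0.0789, adjusted p = 9.13e-19 by edgeR). In GENCODE v29, 868 of 6486 PER3 exon bases are shared with UTS2 exons and 376 with the antisense Z98884.1, both on the opposite strand. UTS2 had 6 reads after tt-DDE and 8 in DMSO.

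PER2, a period gene needed for sustained rhythms in mice, was the weakest expressed of the 10, at 0.406, 0.585 and 0.428 FPKM after tt-DDE and 0.376, 0.363 and 0.359 FPKM in DMSO. All treated libraries were higher, but library 2 stood well above libraries 1 and 3. The log2 fold change of 0.46 (95% interval 0.01 to 0.91) missed the threshold with adjusted p = 0.0526 by edgeR. It passed without tt-DDE library 1 (log2 fold change 0.57, adjusted p = 0.0302) and with DESeq2 size factors in the edgeR fit (0.47, adjusted p = 0.0475), and over the 14 alternatives its adjusted p ran from 0.0302 to 0.31. The 157 reads it had after tt-DDE and 114 in DMSO limit what can be said of it.

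The makeup of the period family differed between groups, while the ranges of its sum overlapped. PER1 held 56.8% ± 1.75 of the summed period FPKM after tt-DDE and 17.1% ± 1.23 in DMSO, and PER3 held 34.6% ± 2.82 after tt-DDE and 76.9% ± 0.98 in DMSO (SD, n = 3 each). The summed level was 5.07, 5.96 and 5.40 FPKM after tt-DDE and 6.43, 5.67 and 6.26 FPKM in DMSO, ranges that overlap. The log2 ratio of PER1 to PER3 reads within a library, which no scaling of libraries can alter, averaged 0.10 ± 0.16 after tt-DDE and -2.79 ± 0.12 in DMSO (SD, n = 3 each). That difference of 2.89 had p = 0.10 in an exact two-sided permutation test, the smallest value 3 libraries against 3 allow. PER1 also rose relative to PER2, by a difference of 1.22 in the log2 ratio with the same exact p = 0.10.

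**Figure D2:**
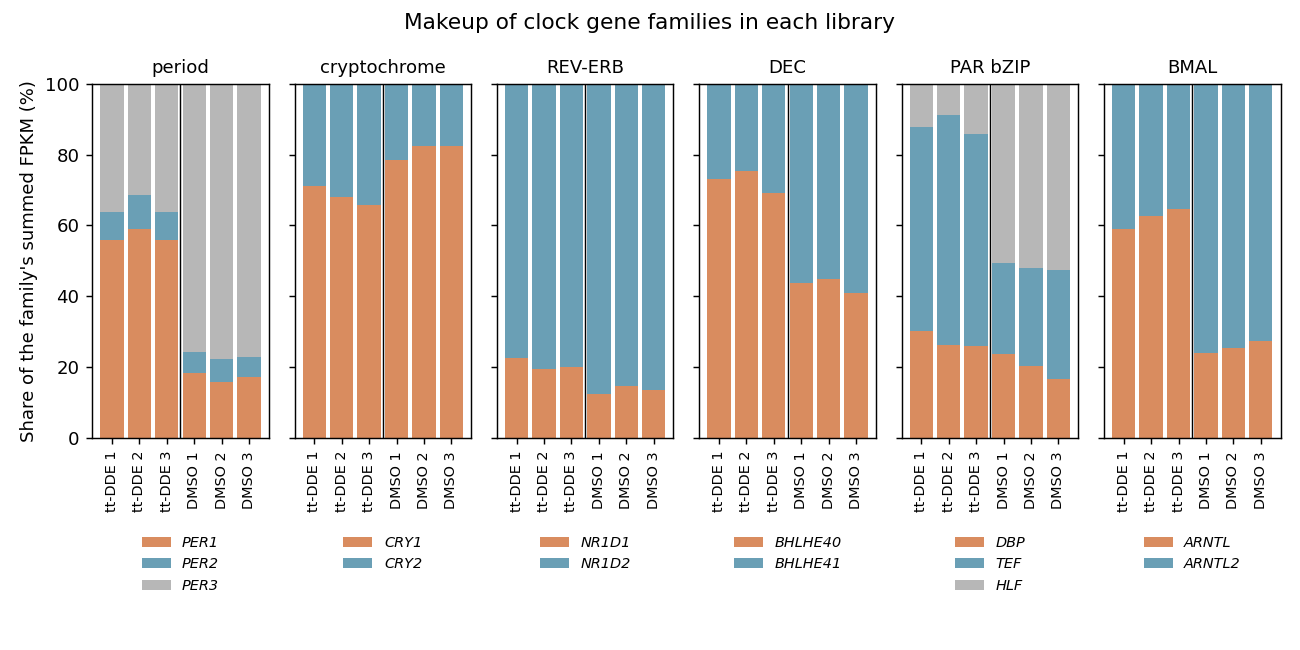
Share of each family's summed FPKM held by each gene (vertical axis, percent) in each of the 3 tt-DDE libraries (left of the line) and 3 DMSO libraries (right of the line). PER1 holds 56.8% of the period sum on average after tt-DDE and 17.1% in DMSO, and ARNTL holds 62.1% of the BMAL sum after tt-DDE and 25.6% in DMSO.

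CRY2, a strong repressor of the activator pair, was at 7.04, 7.83 and 8.18 FPKM after tt-DDE and at 4.00, 3.19 and 3.09 FPKM in DMSO. The treated libraries were all well above the untreated ones, with a log2 fold change of 1.26 (SE 0.0909, adjusted p = 4.83e-17 by edgeR). CRY1, the other main repressor, was at 17.4, 16.6 and 15.8 FPKM after tt-DDE and at 14.7, 15.0 and 14.5 FPKM in DMSO. Its groups also did not overlap, but the rise was small, a log2 fold change of 0.27 (SE 0.0574, adjusted p = 5.13e-05 by edgeR). CRY1 remained the more abundant cryptochrome per length in both groups, with 68.3% ± 2.69 of the summed FPKM after tt-DDE and 81.2% ± 2.23 in DMSO (SD, n = 3 each). Within libraries the log2 ratio of CRY1 to CRY2 reads was 0.82 ± 0.18 after tt-DDE and 1.82 ± 0.21 in DMSO (exact permutation p = 0.10, the smallest possible).

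NR1D1, which encodes REV-ERB alpha, a heme-sensing repressor of ARNTL, was at 10.2, 8.58 and 8.19 FPKM after tt-DDE and at 2.95, 3.61 and 3.17 FPKM in DMSO. Each treated library held over 2 times the level of any DMSO library, and the log2 fold change was 1.56 (SE 0.108, adjusted p = 1.10e-17 by edgeR). On chromosome 17 the row of NR1D1 (40092793 to 40100589, minus strand) overlaps that of THRA, a thyroid hormone receptor on the plus strand, by 1075 bases. Whether strand was used in counting is not given in the sources used here, so reads of that stretch may belong to either gene. In GENCODE v29, 263 of 2772 NR1D1 exon bases are shared with THRA exons. THRA itself moved the other way, at 18.7 ± 0.82 CPM after tt-DDE and 26.3 ± 0.423 CPM in DMSO (SD, n = 3 each; log2 fold change -0.49).

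NR1D2, the REV-ERB beta gene, was the most abundant of the 10 per length, at 34.7, 35.5 and 32.7 FPKM after tt-DDE and 20.6, 20.8 and 20.0 FPKM in DMSO. The groups were far apart relative to their spread, and the log2 fold change was 0.84 (SE 0.0432, adjusted p = 2.66e-22 by edgeR). The row shares 1277 bases with NKIRAS1 on the opposite strand, which was higher too (log2 fold change 1.10), although no exon is shared in GENCODE v29. The summed REV-ERB level was 43.3 ± 2.13 FPKM after tt-DDE and 23.7 ± 0.616 FPKM in DMSO (SD, n = 3 each), with NR1D2 at 79.3% of it after tt-DDE and 86.3% in DMSO. The log2 ratio of NR1D1 to NR1D2 reads was -3.00 ± 0.15 after tt-DDE and -3.72 ± 0.14 in DMSO (exact permutation p = 0.10, the smallest possible).

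BHLHE40, also called DEC1, competes with the activators for E-boxes and responds to hypoxia and other signals. It was at 18.2, 17.5 and 16.5 FPKM after tt-DDE and at 12.2, 12.3 and 11.9 FPKM in DMSO. The groups did not overlap, with a log2 fold change of 0.61 (SE 0.0592, adjusted p = 7.40e-13 by edgeR). Its paralog BHLHE41 (DEC2), a gene linked to short sleep, fell, at 6.72, 5.75 and 7.32 FPKM after tt-DDE against 15.8, 15.1 and 17.1 FPKM in DMSO (log2 fold change -1.19). BHLHE40 thus held 72.5% ± 3.03 of their summed FPKM after tt-DDE and 43.2% ± 1.98 in DMSO (SD, n = 3 each), a pair looked at after the values were seen.

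Among the D-box factors, TEF was at 2.97, 2.93 and 2.76 FPKM after tt-DDE and at 1.76, 1.70 and 2.13 FPKM in DMSO, with no overlap. Its log2 fold change was 0.72 (SE 0.119, adjusted p = 4.82e-07 by edgeR). A same-strand row within TEF, LOC100996598, was nearly empty, at 0.0622 CPM after tt-DDE and 0 in DMSO. DBP, in many tissues the output gene of widest daily swing, was at 1.57, 1.20 and 1.20 FPKM after tt-DDE and 1.62, 1.24 and 1.14 FPKM in DMSO. Its groups overlapped, and library 1 was the highest of each group. The log2 fold change of DBP was 0.09, with a 95% interval of -0.29 to 0.48 (adjusted p = 0.657 by edgeR, 0.293 to 0.997 over 14 alternatives), so a change of up to 1.39-fold upward is within the interval. The sign of this value turned without tt-DDE library 1 (-0.05) and without DMSO library 3 (-0.02). The DBP row shares 378 bases with that of SPHK2, a sphingosine kinase gene on the other strand that rose (log2 fold change 1.21). In GENCODE v29, 661 of 2875 DBP exon bases are shared with SPHK2 exons, so reads there may belong to either gene. SPHK2 had 1691 reads after tt-DDE and 731 in DMSO, beside 199 and 186 for DBP. The log2 ratio of DBP to TEF reads was -1.71 ± 0.19 after tt-DDE and -1.06 ± 0.39 in DMSO (exact permutation p = 0.10, the smallest possible). The groups were barely apart, with tt-DDE library 1 at -1.49 and DMSO library 3 at -1.47. The difference of -0.64 ran from -0.85 to -0.46 when leaving out 1 library.

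HLF, the third factor of that family, fell, at 0.639, 0.403 and 0.656 FPKM after tt-DDE against 3.46, 3.18 and 3.63 FPKM in DMSO (log2 fold change -2.50, SE 0.115). It held 11.8% ± 2.70 of the summed DBP, TEF and HLF level after tt-DDE and 51.7% ± 1.02 in DMSO (SD, n = 3 each), while TEF held 60.6% ± 3.75 after tt-DDE and 28.1% ± 2.59 in DMSO. NFIL3, which represses through the same D-box, rose to 21.2, 20.9 and 20.1 FPKM after tt-DDE, against 2.69, 3.52 and 3.55 FPKM in DMSO. Its log2 fold change of 2.76 (SE 0.082, adjusted p = 1.79e-31 by edgeR) was the largest rise among the clock loop genes tested. In FPKM, NFIL3 stood at 38.6 times HLF on average after tt-DDE and at 0.955 times HLF in DMSO. The pair NFIL3 and HLF was looked at after the values were seen.

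**Figure D3:**
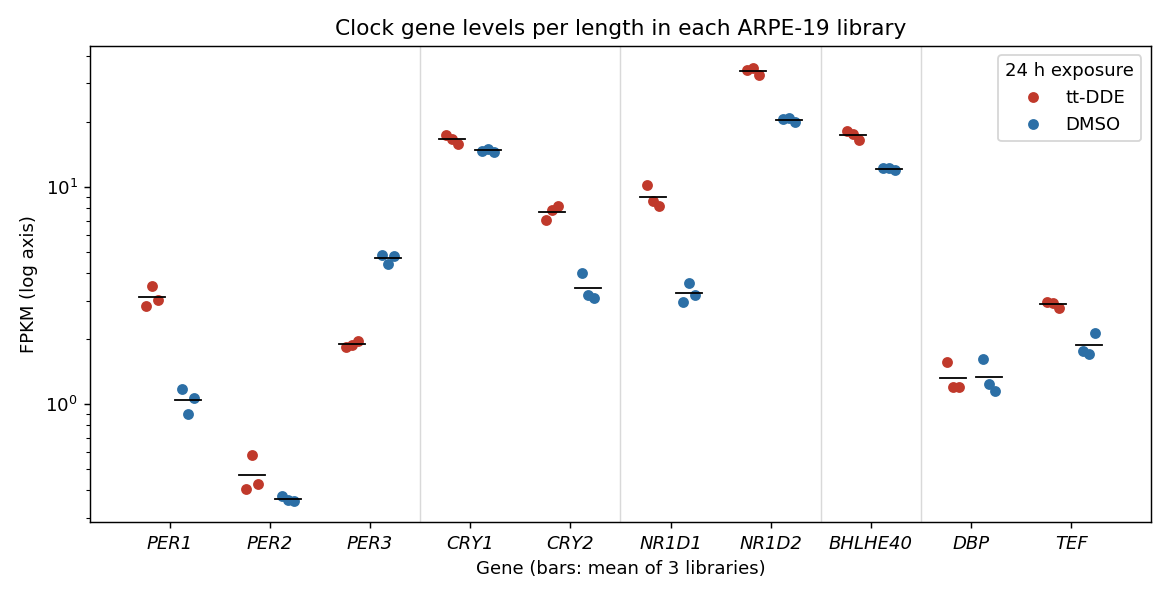
FPKM on a log axis (vertical) of the 10 clock genes (horizontal), with 1 point per library (red, tt-DDE, left; blue, DMSO, right) and a bar at each group's mean. NR1D2 is the highest gene in both groups, PER2 the lowest, and DBP the gene whose groups overlap in scaled counts.

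Ordered by mean FPKM, the genes ran after tt-DDE from NR1D2 (34.3) through BHLHE40 (17.4), CRY1 (16.6), NR1D1 (8.99), CRY2 (7.68), PER1 (3.12), TEF (2.88), PER3 (1.89) and DBP (1.32) to PER2 (0.473). In DMSO the order was NR1D2 (20.5), CRY1 (14.7), BHLHE40 (12.2), PER3 (4.70), CRY2 (3.43), NR1D1 (3.25), TEF (1.86), DBP (1.33), PER1 (1.05) and PER2 (0.366). After tt-DDE the ranges of BHLHE40 and CRY1 overlapped, as did those of PER1 and TEF. In DMSO those of CRY2 and NR1D1 overlapped, as did those of DBP and PER1. Every other pair of neighbours in these orders was apart in all 3 libraries. PER3 was the fourth most abundant in DMSO and the eighth after tt-DDE, and PER1 was the ninth in DMSO and the sixth after tt-DDE.

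Paralogs among the activators also moved in opposite directions. ARNTL, the BMAL1 gene, rose to 8.56, 9.59 and 9.58 FPKM after tt-DDE, against 3.31, 3.72 and 4.05 FPKM in DMSO (log2 fold change 1.41, SE 0.079). Its paralog ARNTL2 fell to 5.97, 5.68 and 5.23 FPKM after tt-DDE, against 10.5, 11.0 and 10.7 FPKM in DMSO (log2 fold change -0.84, SE 0.0546). Neither pair of groups overlapped, and the sum of both genes was 14.9 ± 0.378 FPKM after tt-DDE and 14.4 ± 0.545 FPKM in DMSO (SD, n = 3 each). This sum leaves out the TMM factors used for the fold changes (0.966 to 0.972 after tt-DDE, 1.03 to 1.04 in DMSO). With those factors the tt-DDE sum would stand higher and the DMSO sum lower, so the sums cannot be called equal. ARNTL made up 62.1% ± 2.95 of the summed FPKM after tt-DDE and 25.6% ± 1.75 in DMSO, shares that no scaling of libraries can alter.

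CLOCK, the partner of BMAL1, fell by 0.37 on the log2 scale, to 4.66, 4.48 and 4.23 FPKM after tt-DDE against 5.97, 6.47 and 5.95 FPKM in DMSO. NPAS2, which can stand in for CLOCK, rose to 2.30, 2.69 and 2.45 FPKM after tt-DDE, against 0.741, 0.819 and 0.66 FPKM in DMSO (log2 fold change 1.83, SE 0.114). The sum of CLOCK and NPAS2 was 6.94 ± 0.241 FPKM after tt-DDE and 6.87 ± 0.365 FPKM in DMSO (SD, n = 3 each). These 2 paralog pairs were combined after their values were seen, in FPKM without TMM factors, and were not tested as sums. Set against the repressors in the same library, the log2 ratio of CLOCK to CRY1 reads was -0.10 ± 0.01 after tt-DDE and 0.53 ± 0.04 in DMSO, and that of ARNTL to PER2 reads was 3.78 ± 0.24 after tt-DDE and 2.80 ± 0.18 in DMSO (exact permutation p = 0.10 for each). Over the 8 ratios tested, PER2 to PER3 included, every one was apart between groups, that of DBP to TEF only narrowly. Each had an exact permutation p = 0.10, the smallest possible, also after Benjamini-Hochberg adjustment. The pairs share genes, and 83.9% of all single genes tested were apart in scaled counts. The share of all gene pairs that are apart was not computed.

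**Figure D4:**
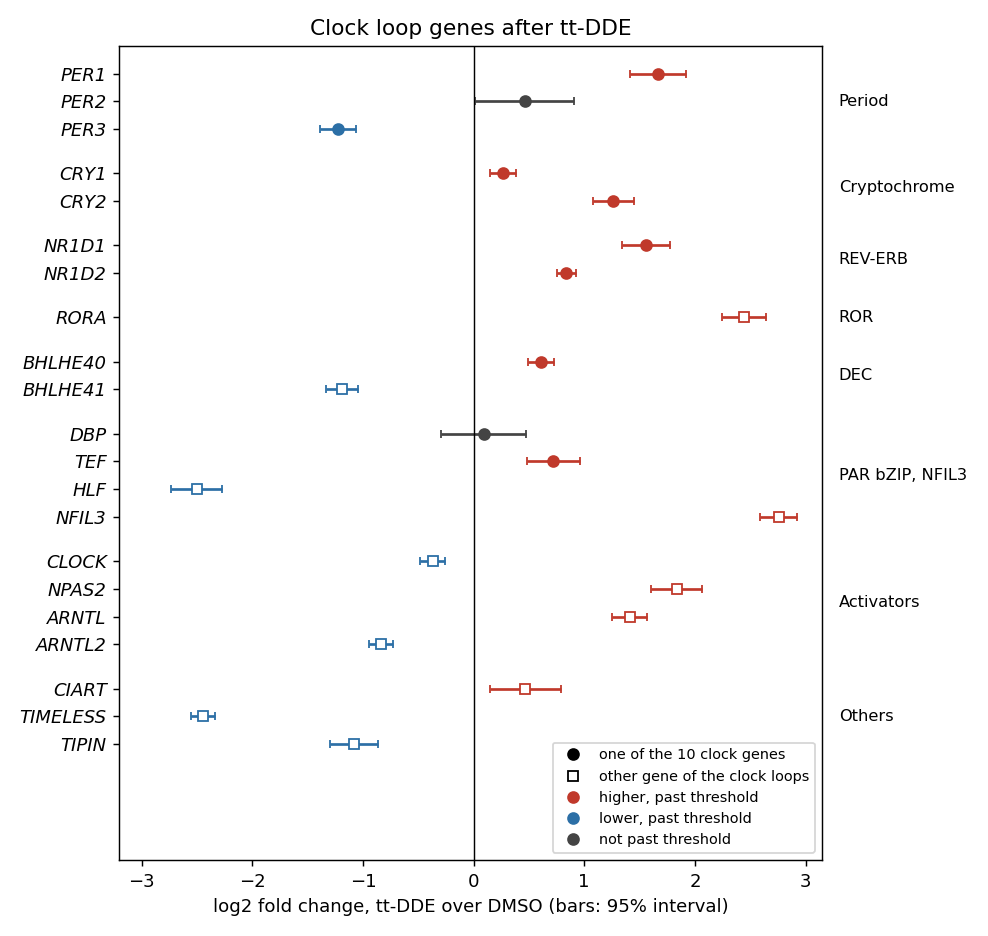
Log2 fold change on counts (horizontal axis, tt-DDE over DMSO) with 95% intervals for the 10 clock genes (filled circles) and 11 other genes of the clock loops (open squares). Paralogs lie on opposite sides of 0 for PER1 and PER3, BHLHE40 and BHLHE41, TEF and HLF, and ARNTL and ARNTL2.

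Of the 9 paralogs and further loop genes looked at, 7 were tested, of which 3 rose and 4 fell. Among all genes tested, 41.7% were called higher and 41.6% lower. RORA, which activates ARNTL where REV-ERB represses it, rose to 1.45, 1.59 and 1.38 FPKM after tt-DDE, against 0.33, 0.239 and 0.301 FPKM in DMSO (log2 fold change 2.44, SE 0.0993). RORB had 3 reads after tt-DDE and 0 in DMSO and was not tested. CIART, a further repressor of the activator pair, had a log2 fold change of 0.47 (adjusted p = 0.00689 by edgeR), and 0.30 without DMSO library 1 (adjusted p = 0.0892, against 0.00277 to 0.0892 over 14 alternatives), which ended the call. TIMELESS, which in mammals works mainly at DNA replication forks, fell to 28.1 ± 1.83 CPM after tt-DDE against 153 ± 3.14 CPM in DMSO (SD, n = 3 each). Its partner TIPIN fell to 8.41 ± 0.096 CPM after tt-DDE against 17.8 ± 0.646 CPM in DMSO. The row of TIPIN shares 362 bases with MAP2K1, that of CLOCK 25495 with TMEM165 and that of BHLHE41 3087 with SSPN, each on the opposite strand. MAP2K1 rose (log2 fold change 0.90), while TMEM165 and SSPN fell (-1.01 and -1.72), as did CLOCK and BHLHE41. Reads of these stretches may belong to either gene. This limit also holds for the shares, sums and ratios above that use CLOCK or BHLHE41.

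Of the kinases, phosphatases and ubiquitin enzymes of clock proteins, 12 of 20 tested rose, 6 fell and 2 were not past the threshold. Their median log2 fold change was 0.26 beside 0.001335 over all genes, of which 41.7% were called higher and 41.6% lower. The casein kinase CSNK1A1, which phosphorylates PER, was at 0.90. The casein kinase 2 subunits CSNK2A1 and CSNK2A2 were at 1.04 and 1.68. FBXW11, the beta-TrCP paralog that marks PER for degradation, was at 0.99, and the phosphatase subunit PPP1CA fell (-0.76). CSNK1E had 2 reads after tt-DDE and 1 in DMSO on its row and was not tested, as was CSNK2B. A readthrough row that spans CSNK1E held 5 reads after tt-DDE and 0 in DMSO.

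Corepressors and chromatin partners of the clock had 7 higher, 6 lower and 2 not past of 15, with a median of 0.03. The acetyltransferase genes CREBBP and EP300, coactivators of CLOCK and BMAL1, rose with log2 fold changes of 1.49 and 1.04, and the demethylase KDM5A with 1.01. EZH2, a histone methyltransferase that is also higher in dividing cells, fell (-0.96). Signal inputs to PER transcription had 8 higher, 2 lower and 1 not past of 11, with a median of 0.79. Both lists are to be read beside the 41.7% of all genes called higher and the 41.6% called lower. The CREB coactivators CRTC2 and CRTC3 were at 0.93 and 1.27, and SIK3, a kinase that holds CRTC proteins in the cytoplasm, at 1.61. Of the glucocorticoid-induced genes in that list, the co-chaperone gene FKBP5 fell (-1.25) and TSC22D3 rose (1.66).

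Of 12 clock outputs, DBP, TEF and HLF included, 8 rose, 3 fell and DBP was not past the threshold (median log2 fold change 0.87). HLF (-2.50) was among those that fell. POR, the electron donor of cytochromes P450, had a log2 fold change of 2.09, and PPARA, a lipid-sensing nuclear receptor, of 1.82. NAMPT, which limits NAD synthesis and is a known E-box target, was at 267 ± 14.4 CPM after tt-DDE and 132 ± 2.34 CPM in DMSO (SD, n = 3 each), a log2 fold change of 1.01. In the annotated Circadian rhythm pathway of the deposited table, looked at after the results were seen, 15 of 26 tested genes rose and 9 fell (median log2 fold change 0.42). The lists overlap in part. Shares passing here are to be read beside the 83.3% of all genes that passed, 41.7% as higher and 41.6% as lower.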

How the data were processed

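mRNA was sequenced from 3 tt-DDE and 3 DMSO libraries. Groups and replicate numbers came from the sample titles. The labels do not say that libraries came from separate cultures, so p-values measure the spread between these libraries, which may be technical. Per the file headers, the authors deposited a raw read count and an FPKM per gene row. The deposited FPKM equalled count over length and column total for all 91254 values above 0 (relative tolerance 1e-06), so it holds no composition factor. Coordinates are on GRCh38 (p13), a build named in the submitters' processing notes. For the aligner, the counter and the use of strand, the sources used here give nothing.

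Rows sharing a name were summed (22312 rows, 19514 names). The main test was edgeR's (4.0.16, R 4.3.3) two-sided quasi-likelihood test on group, after filterByExpr and TMM, with p-values adjusted by Benjamini-Hochberg across 12531 genes and a threshold of 0.05. SE is the log2 fold change over the root of F. Levels between genes are compared in FPKM. Ratios within a library were tested by exact permutation. Alternatives used DESeq2 1.42.0, limma 3.58.1 on log2(FPKM + 1) and log2(FPKM + 0.1), other scalings, no filter, a replicate block and leaving out each library. Since reads carry no molecular identifiers, PCR copies are not separate molecules.

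The members and lists were chosen with earlier results of these data known. Named were the 10 members, all activators and paralogs, the 4 genes of lowest p in every other list, the top gene of its less frequent direction, and genes whose rows overlap a member. Some listed genes are not reported here. CD14, CD68, RBFOX3, SYP, TSC22D3, UTS2, the pigment epithelium markers with values and the readthrough row were named after their values were seen. BMAL1 and BMAL2 stand in the table as ARNTL and ARNTL2.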

Additional observations from a re-analysis of the deposited data

How the results depend on the processing

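The 8 clock genes past the threshold kept direction and call in all 112 values under the 14 alternatives, and the 8 ratios within a library kept their sign throughout. The count of higher clock genes was 8 with DESeq2 size factors and 7 to 8 when leaving out 1 library, where PER2 ran from 0.28 to 0.57. PER2 also passed with DESeq2 size factors (0.47). Requiring at least 2-fold, an alternative added after seeing the data, left 3 higher and 1 lower. The uncalled DBP value turned to -0.005482 and -0.007454 on log2(FPKM + 1) and log2(FPKM + 0.1), and ran from -0.048 to 0.24 when leaving out 1 library; the cause was not tested. On log2(FPKM + 1), which understates low genes, PER1 was 1.01 and RORA 0.94. With library size alone the median of all genes was -0.09, and 4737 genes were higher and 5689 lower. Same-numbered libraries had correlations of deviations of -0.02 to 0.01, and differently numbered ones of -0.034 to 0.041, so no pairing by number was seen. This cannot show whether the cultures were paired. With a replicate block the calls were 5192 higher and 5179 lower among all genes and 7 and 1 among the clock genes. PER2 and DBP, with 157 and 199 reads after tt-DDE, are the genes most limited by depth.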
